A study of Mus musculus with 2 samples.

Results

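CTCF binding was measured by chromatin immunoprecipitation and sequencing (ChIP-seq) in liver of newborn mice, and is described here at the H2 genes, which make up the major histocompatibility complex of the mouse. The members were chosen by position and name: all protein-coding genes of chromosome 17 in the GENCODE M21 annotation whose symbols start with H2-. The rule gave 34 of 21938 protein-coding genes. Class followed the symbol: 24 genes are class I (H2-K1, H2-D1 and the Q, T and M genes), 9 are class II (H2-Oa, H2-DMa, H2-DMb2, H2-DMb1, H2-Ob, H2-Ab1, H2-Aa, H2-Eb1 and H2-Eb2), and H2-Ke6 is neither, since it encodes a hydroxysteroid dehydrogenase (Hsd17b8). Another 11 H2 genes without a protein-coding annotation were not counted as members. All samples belong to 1 group: 2 biological replicates of liver from strain B6NCrl at 0 days after birth, with no treatment, no mutation and no second group. Each replicate was drawn from powdered livers that had been pooled over several dissections, sex was not collected, and the labels give both replicates 1 shared biosample and donor. The difference between them may therefore be technical. A ChIP-seq experiment on CTCF measures no RNA, so the tissue could not be checked against its marker genes.

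Class I molecules show peptides from inside the cell to cytotoxic T cells. H2-K and H2-D are the classical class I molecules, and the Q, T and M genes encode nonclassical relatives with narrower roles. Class II molecules are pairs of an alpha and a beta chain on antigen-presenting cells such as B cells and dendritic cells. H2-A and H2-E present peptides there, H2-DM exchanges the peptide inside the cell, and H2-O restrains H2-DM. CTCF is a zinc finger protein that, with the cohesin ring, anchors loops of chromatin and the borders of domains. In human cells a CTCF site between the HLA-DR and HLA-DQ genes is a known insulator of the class II region.

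The optimal list, the longer of 2 lists that the authors made by the irreproducible discovery rate (IDR, a measure of how well ranks repeat between replicates), held 57220 peaks. Of these, 89 had their summit within 1 kb of the 5' end of an H2 gene, inside an H2 gene, or in a gap of at most 200 kb between consecutive H2 genes. Class I genes and gaps held 50 of them and class II genes and gaps 30. The gaps on either side of H2-Ke6 held 8, and H2-Ke6 itself held 1. Of the 89 peaks, 86 had a call within 100 bp in each of the replicate lists. The deposited signal had a median of 81.1 at H2 peaks against 71.2 over the whole list. It ran from 17.2 to 372.7 in class I, with a median of 85.5, and from 12.7 to 566.1 in class II, with a median of 75.9. The scale of this signal is not stated, read counts were not used here and the depth is unknown, so signals describe peaks within a list and carry no interval.

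**Figure D1:**
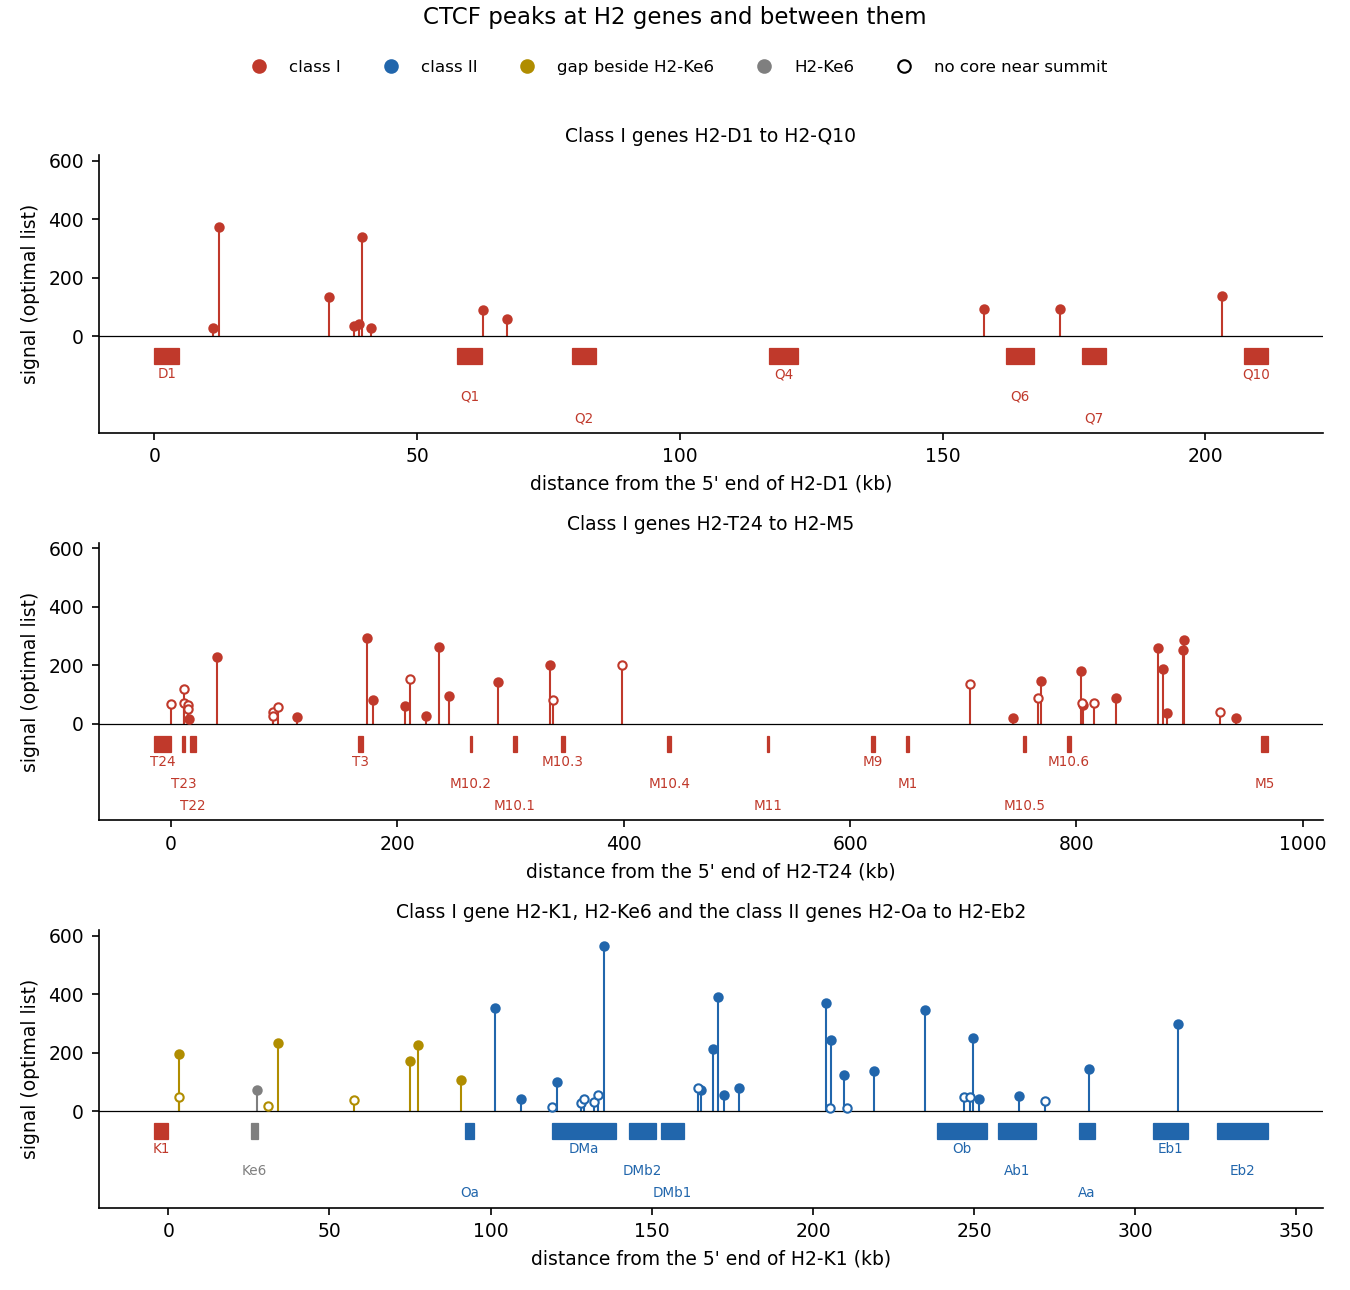
Optimal-list signal (no stated unit) of each H2 peak, against distance in kb from the 5' end of H2-D1, of H2-T24 and of H2-K1, with filled dots for peaks that hold the CTCF core near the summit and boxes for the genes. Class I genes are almost free of peaks inside their boxes, while the peak of 566.1 stands inside the record of the class II gene H2-DMa.

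Few H2 genes had CTCF at their 5' end. The count was 4 of 34 genes, or 11.8% (exact Clopper-Pearson 95% interval 3.3 to 27.5%, which covers counting error over genes only), against 28.3% of all protein-coding genes. It was 2 of 24 class I genes and 1 of 9 class II genes, with H2-Ke6 as the remaining one. CpG-rich promoters carried a peak more often among all genes, 45.7%, than other promoters, 14.4%, and 8 of the 34 H2 promoters were CpG-rich, or 23.5%, against 44.4% of all. Of the 6 Q genes 5 had a CpG-rich promoter, and no Q gene had a peak there. Each replicate alone, with as many of its strongest peaks as the optimal list holds, gave 5 H2 genes in replicate 1 and 3 in replicate 2. Among the 300000 calls of each replicate list, which include many weak ones, 12 H2 genes (35.3%) had a call at the 5' end in both lists, against 50.4% of all genes.

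Both class I genes with a peak at the 5' end belong to the T family. H2-T24 had a peak of signal 68.9 in the optimal list, 161 bp upstream of its 5' end (chr17:36020579-36020862 of mm10), in an intron of the antisense gene A930015D03Rik. Its signal was 38.1 in replicate 1 and 31.1 in replicate 2. H2-T23, which encodes the Qa-1 molecule, had a peak of 69.9 in an exon 878 bp downstream of its 5' end (chr17:36031880-36031995), with 31.3 in replicate 1 and 35.3 in replicate 2. A second peak of 118.6 lay in a coding exon of H2-T23 at chr17:36031717-36031790, with 71.9 in replicate 1 and 46.2 in replicate 2. None of these 3 peaks held the CTCF core described below. Sequence uniqueness was uneven at H2-T23: 39.6% of the 32-base words in its promoter window occur once in the genome. Around the summits the share was 75.7% for its peak of 69.9 and 100% for its peak of 118.6. The authors' treatment of reads with several matches is not stated in the labels.

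In class II, the peak at the 5' end of H2-DMa was weak. It had an optimal signal of 14.2 at chr17:34119194-34119477, a call of 13.8 in replicate 1 and no call in replicate 2. It lay in the 5' UTR of Brd2, which encodes a bromodomain protein and overlaps the H2-DMa record. The H2-DMa record in this annotation is 19.6 kb long, since some of its transcripts start within Brd2, and others start at position 34135628, inside the record. A summit 233 bp upstream of that internal start belonged to the strongest of the 89 H2 peaks, at chr17:34135218-34135579 in a 5' UTR of H2-DMa. Its signal was 566.1, rank 52 in the optimal list, with 295.5 in replicate 1 and 273.3 in replicate 2. With all annotated starts counted, 2 class I and 3 class II genes had a peak within 1 kb, the added class II genes being H2-Ob (49.2, 493 bp from an internal start) and H2-Ab1 (53, 906 bp from one). The share of all protein-coding genes with all starts counted is not given here, so these counts have no background beside them. H2-Ke6 had a peak of 74.5 in a coding exon 246 bp downstream of its 5' end, with 37.4 in replicate 1 and 36 in replicate 2.

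Peaks inside the genes were counted more often in class II than in class I. Only H2-T23 among the 24 class I genes held a peak (4.17%, exact interval 0.105 to 21.1%), against 5 of the 9 class II genes (55.6%, exact interval 21.2 to 86.3%), and 53.7% of all protein-coding genes did. Together the class I genes held 2 peaks in 106 kb and the class II genes 13 peaks in 96.7 kb. Class II genes are longer than class I genes, and 6 of their peaks lay in the long H2-DMa record, all upstream of its internal start. Among these, the peak of 100.3 also lay in a 5' UTR of Brd2. The 21938 protein-coding genes cover 1074176 kb and are on average far longer than either class. Their share of 53.7% is thus not like for like with the class shares. Per 100 kb of gene the values were 1.89 in class I and 13.4 in class II, beside 3.04 over all protein-coding genes. The other class II genes with peaks were H2-Ob with 4, and H2-Ab1, H2-Aa and H2-Eb1 with 1 each. H2-Oa, H2-DMb2, H2-DMb1 and H2-Eb2 held none. The class I count was 2 in replicate 1 alone, 1 in replicate 2 alone and 2 in the conservative list, and the class II count was 5 in each of these. The share of 32-base words in a gene that occur once in the genome ran from 24.4% (H2-Q7) to 99.4% (H2-M11) in class I and from 66.1% (H2-DMb2) to 99% (H2-Aa) in class II. It was 30.6% in H2-Q6, 44.5% in H2-T22, 49% in H2-T24 and 52.3% in H2-Q4, and its part in the class difference was not tested.

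**Figure D2:**
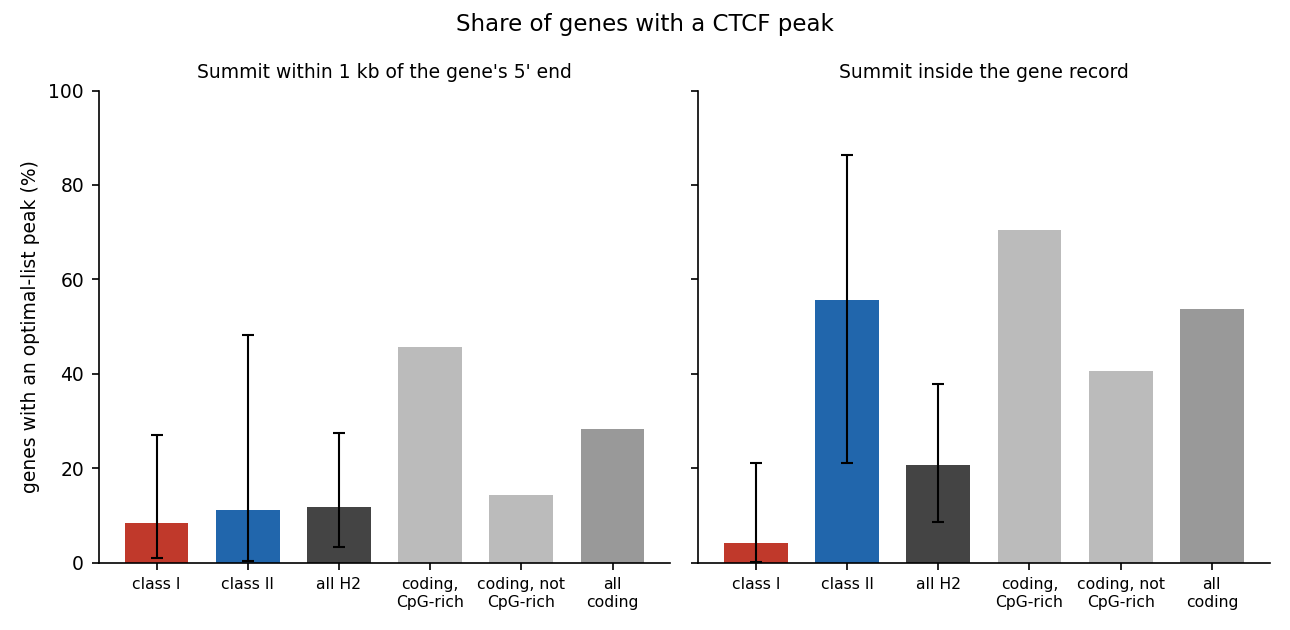
Percent of class I, class II and all H2 genes, and of protein-coding genes by promoter type, with an optimal-list summit within 1 kb of the 5' end (left) and inside the gene record (right). Error bars are exact 95% intervals over the 24 class I, 9 class II and 34 H2 genes. The class I and class II bars are close at the 5' ends, 8.33% and 11.1%, and far apart inside the genes, 4.17% and 55.6%.

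The peaks in class II genes were mostly in introns, and several were strong. The H2-Eb1 gene, for the beta chain of H2-E, held a peak of 300.2 in an intron 7.74 kb from its 5' end (147.4 in replicate 1, 152.4 in replicate 2). The H2-Aa gene, for the alpha chain of H2-A, held a peak of 145.6 in an exon of a noncoding transcript, 1.77 kb from its 5' end, with 74 in replicate 1 and 71 in replicate 2. In the intron of H2-Ab1, for the beta chain of H2-A, the peak had 53 in the optimal list, 25.9 in replicate 1 and 26.2 in replicate 2. These 3 genes thus spanned weak to strong peaks, and the replicates kept their order. In H2-Ob, for the beta chain of H2-O, the optimal signals were 50.6, 49.2, 251.3 and 43.7 along the gene, so 1 of its 4 peaks stood far above the rest, with 129.2 in replicate 1 and 120.7 in replicate 2.

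Between the genes the picture differed. Of the 29 gaps between consecutive H2 genes 20 held a peak, or 69%, against 46.5% of the 17423 gaps of at most 200 kb between consecutive protein-coding genes. The 2 kinds of gap are not alike in length: the median is 32.9 kb for H2 gaps and 14.1 kb for all coding gaps, and H2 gaps may hold other genes, which coding gaps by construction do not. Class I gaps held a peak in 15 of 19 cases and class II gaps in 3 of 8. Yet class II gaps were denser, with 17 peaks in 152 kb (11.2 per 100 kb), against 48 in 1101 kb in class I gaps (4.36 per 100 kb). All coding gaps had 3.58 per 100 kb and chromosome 17 had 2.73. Each replicate alone gave a mean density of 4.4 ± 0.19 in class I and 10.2 ± 0.46 in class II gaps (SD, n = 2). This spread is that of 2 replicates from 1 biosample and does not cover the spread among gaps, whose densities ran from 0 to 70.2 in class I and from 0 to 16.5 in class II.

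One gap carried most of the class II peaks. The 78.7 kb from H2-DMb1 to H2-Ob held 13 of the 17, and it also holds Psmb9, Tap1, Psmb8 and Tap2, which encode subunits of the immunoproteasome and of the peptide transporter that feeds class I molecules. In gaps with no other protein-coding start, a restriction chosen after the values were seen, class I had 24 peaks in 696 kb (3.45 per 100 kb) and class II 4 peaks in 73.7 kb (5.43 per 100 kb), both nearer to the 3.58 of all coding gaps. Among the 23 such H2 gaps 14 held a peak. The gap from H2-Oa to H2-DMa passes this rule and held 3 of the 4 class II peaks, though the gene Brd2 reaches into it. The share of 32-base words that occur once in the genome was 67.8% in class I gaps and 86% in class II gaps; its part in the difference was not tested.

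**Figure D3:**
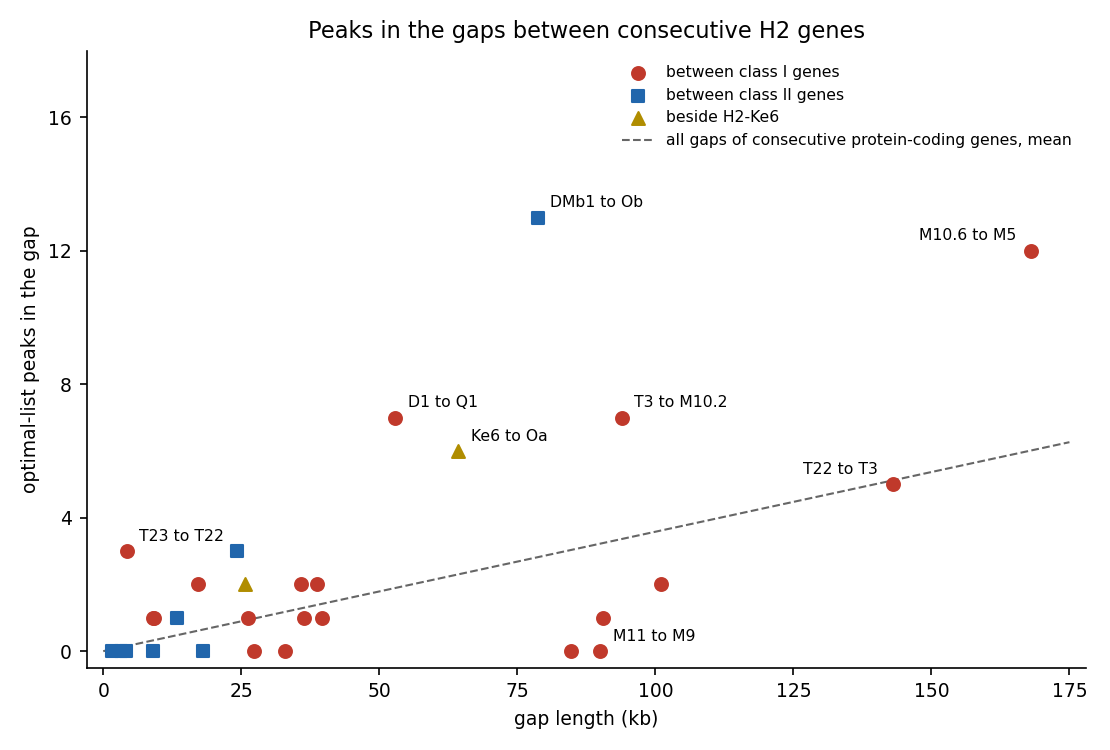
Number of optimal-list peaks in each gap between consecutive H2 genes against gap length in kb, for class I (circles), class II (squares) and the gaps beside H2-Ke6 (triangles), with the mean density of all coding gaps as a dashed line. The gap from H2-DMb1 to H2-Ob stands highest with 13 peaks in 78.7 kb, and long class I gaps around H2-M11 lie on 0.

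Inside the gap from H2-DMb1 to H2-Ob the strongest peak had a signal of 391.4 (chr17:34170841-34171115, 17.9 kb from the 5' end of H2-DMb1), with 210.3 in replicate 1 and 181.8 in replicate 2. The next was 371.8, in a 5' UTR of Tap2 936 bp from its 5' end, with 188.5 in replicate 1 and 184.6 in replicate 2. Another peak, of 347.2, lay 3.74 kb upstream of H2-Ob, with 165.1 in replicate 1 and 184.3 in replicate 2. Weak peaks shared the gap, the lowest being 12.7 in an intron of Tap2. On the other side of H2-DMa, the gap from H2-Oa held a peak of 351.6 at 9.33 kb from the 5' end of H2-Oa, with 181.3 in replicate 1 and 169.1 in replicate 2. Gaps beside the H2-A and H2-E genes were nearly empty: 1 peak of 35 lay between H2-Ab1 and H2-Aa, and none lay between H2-Ob and H2-Ab1, H2-Aa and H2-Eb1, or H2-Eb1 and H2-Eb2. The density was thus 14.7 per 100 kb among the DM and O genes (16 peaks in 109 kb) and 2.48 among the A and E genes (1 peak in 40.4 kb). All coding gaps had 3.58 per 100 kb, and 13 of the 16 DM and O peaks lay in the gap from H2-DMb1 to H2-Ob.

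The cores under the strongest class II peaks are shown because 5 of the 7 H2 peaks among the strongest 5722 peaks of the optimal list belong to that class. The 14-base CTCF core, a consensus of the central motif in ambiguity letters, was searched for on each strand, up to 50 bp from the summit and allowing 2 mismatches. It was found in 71.2% of all optimal peaks and in 2.98% of windows displaced by 1 kb. Each line runs 5' to 3' along the core, from the mm10 (GRCm38) sequence of chromosome 17, with the core in capitals and 8 bases on each side.
H2-DMa internal start, plus strand, core at chr17:34135419-34135432: ccgaccttCCACCAGGGGGCGGaggtctcc
H2-DMb1 to H2-Ob, plus strand, core at chr17:34170956-34170969: acatttgtCCACTAGGTGGCGCcaaagaca
Tap2, minus strand, core at chr17:34204451-34204464: cacagccgCCAGCAGATGGCGCctgtcaat
H2-Oa to H2-DMa, plus strand, core at chr17:34101658-34101671: ataaatccCCACCAGGGGGCGCtcgcgtgt
upstream of H2-Ob, minus strand, core at chr17:34235168-34235181: ttacatggCCACCAGATGGCACcagactca

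These 5 cores match the consensus without a mismatch. Among all 89 H2 peaks 59 held the core (66.3%, exact interval 55.5 to 76%), with 34 of 50 in class I and 19 of 30 in class II, and 12 matched it in full. H2 peaks with the core had a median signal of 133 and those without it 50.1, beside 98.8 and 35.7 over the whole list. Of the 4 peaks at a 5' end 1 held the core, at H2-Ke6. Neighbouring cores pointed the same way in 28 of 54 pairs (51.9%), toward each other in 12 and apart in 14, and the same-way share over the whole list was 52%.

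In class I, 48 of the 50 peaks lay outside the protein-coding H2 genes. Among them, peaks of 41.1 and 27.1 lay in the pseudogene H2-T-ps. Several of the 48 lay inside other protein-coding genes, among them Gm7030, Rpp21, Trim39 and Rnf39, which the naming rule leaves out. A peak 1 to 5 kb upstream of the 5' end, a window chosen after the values were seen, stood at 7 of 24 class I genes (29.2%), against 2 of 9 class II genes (22.2%) and 17.6% of all protein-coding genes. The 7 were H2-K1, H2-D1, H2-Q6, H2-Q7, H2-Q10, H2-T23 and H2-T3. The H2-K1 peak was counted beside H2-Ke6 and the H2-D1 peak lay outside the counted gaps, so neither is among the 50. Of the 7 peaks, 5 held the core, and it lay on the strand of the gene in all 5. Those at H2-K1, H2-Q6, H2-Q7 and H2-Q10 are copies of 1 site with an identical core, and the remaining one is at H2-T3. The 5 are therefore not independent cases. The strand agreement and the count of 7 genes rest on fewer separate sites than genes. The class II pair was H2-Oa and H2-Ob, with the core on the strand of the gene at H2-Oa and on the other strand at H2-Ob.

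Sequence copies recur among these peaks. Peaks whose 71 bases around the core, or around the best match where there was no core, were alike at 75% or more, a threshold chosen after the values were seen, formed 11 groups with 29 of the 89 peaks: 25 in class I, 3 in class II and 1 beside H2-Ke6. The share over all optimal peaks is not given here, so the 29 have no background beside them. A search of both strands then listed further copies, with or without a peak. It ran from 50 kb before the first H2 gene to 50 kb after the last, for 60-base windows with at most 12 differences. The group with the most copies had 23, of which 5 had an optimal peak and 16 had no call in the pooled list. Several groups, not shown, held no core in any of their peaks. The copies upstream of the K and Q genes are shown because they repeat at nearly the same distance from their genes. The core is in capitals, and each line runs along the core's own strand.
H2-K2 (pseudogene), minus strand, chr17:33982326-33982385: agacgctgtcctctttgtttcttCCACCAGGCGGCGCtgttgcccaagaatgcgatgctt
H2-K1, minus strand, chr17:34003606-34003665: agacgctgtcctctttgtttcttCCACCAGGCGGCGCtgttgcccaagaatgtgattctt
H2-Q1, plus strand, chr17:35295984-35296043: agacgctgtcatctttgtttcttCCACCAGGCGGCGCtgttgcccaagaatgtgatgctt
H2-Q5 (pseudogene), plus strand, chr17:35389962-35390021: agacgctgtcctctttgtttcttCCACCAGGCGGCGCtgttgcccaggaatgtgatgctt
H2-Q6, plus strand, chr17:35420641-35420700: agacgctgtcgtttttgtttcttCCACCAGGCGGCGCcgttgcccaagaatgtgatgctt
H2-Q7, plus strand, chr17:35435014-35435073: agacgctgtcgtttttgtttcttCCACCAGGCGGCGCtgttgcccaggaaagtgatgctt
H2-Q10, plus strand, chr17:35465848-35465907: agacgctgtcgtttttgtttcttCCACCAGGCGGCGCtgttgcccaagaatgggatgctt

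The core itself is identical in these 7 copies and lies on the strand of the nearest H2 gene in each. It was 3.29 kb upstream of H2-K1, 4.18 kb upstream of H2-Q6, 4.11 kb upstream of H2-Q7 and 4.21 kb upstream of H2-Q10, whose product is a soluble class I molecule secreted by liver. The pseudogenes had it 3.53 kb (H2-K2) and 4.13 kb (H2-Q5) upstream, and the copy nearest to H2-Q1 lay 24.4 kb upstream of it. An optimal peak covered 6 of the 7. At H2-K1 the optimal signal was 194.4, with 109.0 in replicate 1 and 83.9 in replicate 2. At H2-Q10 it was 137.9, with 56 in replicate 1 and 80.8 in replicate 2. These copies stood higher in 1 replicate than in the other, and the direction was not the same at both genes. The copies of H2-Q6 and H2-Q7 were nearly equal, at 92.8 (49.4 in replicate 1, 41.8 in replicate 2) and 92.2 (47.1 and 44.6 in the same order). The H2-K2 copy had 162.3 and the H2-Q1 copy 132.8. The H2-Q5 copy had no optimal peak, though the pooled list held a call there at rank 65724. A median of 57.1% of the 32-base words at the 5 H2 peaks of this group occur once in the genome, so the order of these signals is uncertain.

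The strongest peaks between H2-D1 and H2-Q1 are also copies. The strongest class I peak, 372.7, lay 12.2 kb downstream of the 5' end of H2-D1 (189.5 in replicate 1, 183.3 in replicate 2), and its copy 18.2 kb upstream of H2-Q1 had 338.0 (170.9 in replicate 1, 169.8 in replicate 2). A further copy, 10.1 kb downstream of the 5' end of the pseudogene H2-K2 and outside the counted gaps, had 339.9 (166.5 in replicate 1, 173.5 in replicate 2). All 3 were thus strong in both replicates. The 2 that belong to the H2 peaks had only unique 32-base words around them. They are shown because the core differs at 2 places, A3G and G5C from the H2-K2 copy to the others. Places are counted from 1 at the 5' end of the core. Bases around the core differ between these copies too, and each of the 3 cores has 1 mismatch to the consensus.
H2-K2, plus strand, chr17:33968659-33968718: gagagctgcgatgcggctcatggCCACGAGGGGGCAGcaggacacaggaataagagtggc
H2-D1, minus strand, chr17:35274923-35274982: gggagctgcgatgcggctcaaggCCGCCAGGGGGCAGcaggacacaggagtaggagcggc
H2-Q1, minus strand, chr17:35302140-35302199: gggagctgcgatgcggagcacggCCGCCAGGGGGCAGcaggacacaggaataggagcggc

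Copies in the T family differed in signal. H2-T3, which encodes the thymus leukemia antigen, had a copy 3.46 kb upstream with an optimal signal of 293.0, 141.2 in replicate 1 and 150.2 in replicate 2. The copy 18.3 kb upstream of H2-T22 had 227.7, with 118.3 in replicate 1 and 108.3 in replicate 2. The copy 10.6 kb upstream of the pseudogene H2-T10 had 23.9, with 8.56 in replicate 1 and 15.2 in replicate 2, so it was far below the others in both. Its core differs from that near H2-T22 by T5C and T9A, and the H2-T3 core by T5C alone. The change T9A takes the core off the consensus, and T5C does not. Bases outside the core differ between these copies too, and the part of any change in the signals was not tested. Unlike the Q copies, these windows are nearly unique, with a median of 98.6% of 32-base words. The distances given are to H2 genes only. By summit, the nearest protein-coding start was that of Gm11127, 2661 bp away, for the H2-T22 copy. For the H2-T10 copy it was that of Gm7030, 2677 bp away, and neither symbol starts with H2-.
H2-T22, minus strand, chr17:36061002-36061061: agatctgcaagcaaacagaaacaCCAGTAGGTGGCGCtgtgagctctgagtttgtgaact
H2-T10 (pseudogene), minus strand, chr17:36132053-36132112: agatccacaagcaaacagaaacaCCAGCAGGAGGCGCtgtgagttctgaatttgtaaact
H2-T3, minus strand, chr17:36193719-36193778: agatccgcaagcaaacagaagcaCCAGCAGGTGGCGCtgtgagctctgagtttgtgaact

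The M10 genes, known from pheromone-sensing neurons of the vomeronasal organ, have their own copied site, and there the core lies opposite to the strand of the nearest H2 gene in all 6 copies.
H2-M10.1, plus strand, chr17:36308973-36309032: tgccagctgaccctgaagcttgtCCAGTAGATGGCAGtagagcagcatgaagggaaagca
H2-M10.3, plus strand, chr17:36355449-36355508: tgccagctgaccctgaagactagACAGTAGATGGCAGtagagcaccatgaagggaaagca
H2-M10.3 upstream, plus strand, chr17:36384978-36385037: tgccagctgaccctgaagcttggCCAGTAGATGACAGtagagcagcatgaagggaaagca
H2-M10.5 upstream, minus strand, chr17:36764485-36764544: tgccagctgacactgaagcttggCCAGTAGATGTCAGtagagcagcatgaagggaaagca
H2-M10.5, minus strand, chr17:36789017-36789076: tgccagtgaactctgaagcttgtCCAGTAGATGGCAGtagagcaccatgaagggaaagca
H2-M10.6, minus strand, chr17:36826205-36826264: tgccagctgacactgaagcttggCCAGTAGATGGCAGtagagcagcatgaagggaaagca

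They are shown because near-identical copies had unlike signals, and their cores differ at few positions. The 4 copies downstream of the 5' ends of H2-M10.1 (17.2 kb), H2-M10.3 (12.9 kb), H2-M10.5 (16.1 kb) and H2-M10.6 (14.1 kb) keep the G at core position 11. Their optimal signals were 142.9, 201.3, 146.7 and 62.7 in that order. Replicate 1 gave them 71.4, 103.1, 80.6 and 36.7, and replicate 2 gave 70.6, 96.8, 67.2 and 31.2. The H2-M10.3 copy was highest in both replicates although its core has C1A. The copy 8.4 kb upstream of H2-M10.5 has G11T and had 20.7, with 14.1 in replicate 1 and 6.76 in replicate 2. The copy 16.6 kb upstream of H2-M10.3 has G11A, had no optimal peak, and stood at rank 216688 in the pooled list. Both were below the 4 others, and both also lie upstream of the nearest 5' end while the others lie downstream of it. The part of the base changes or of the position in these signals was not tested. Copies with the same core still differed, with 142.9, 146.7 and 62.7 at H2-M10.1, H2-M10.5 and H2-M10.6. A median of 55.7% of the 32-base words at the 5 peaks of this group occur once in the genome, and its part in these values was not tested.

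**Figure D4:**
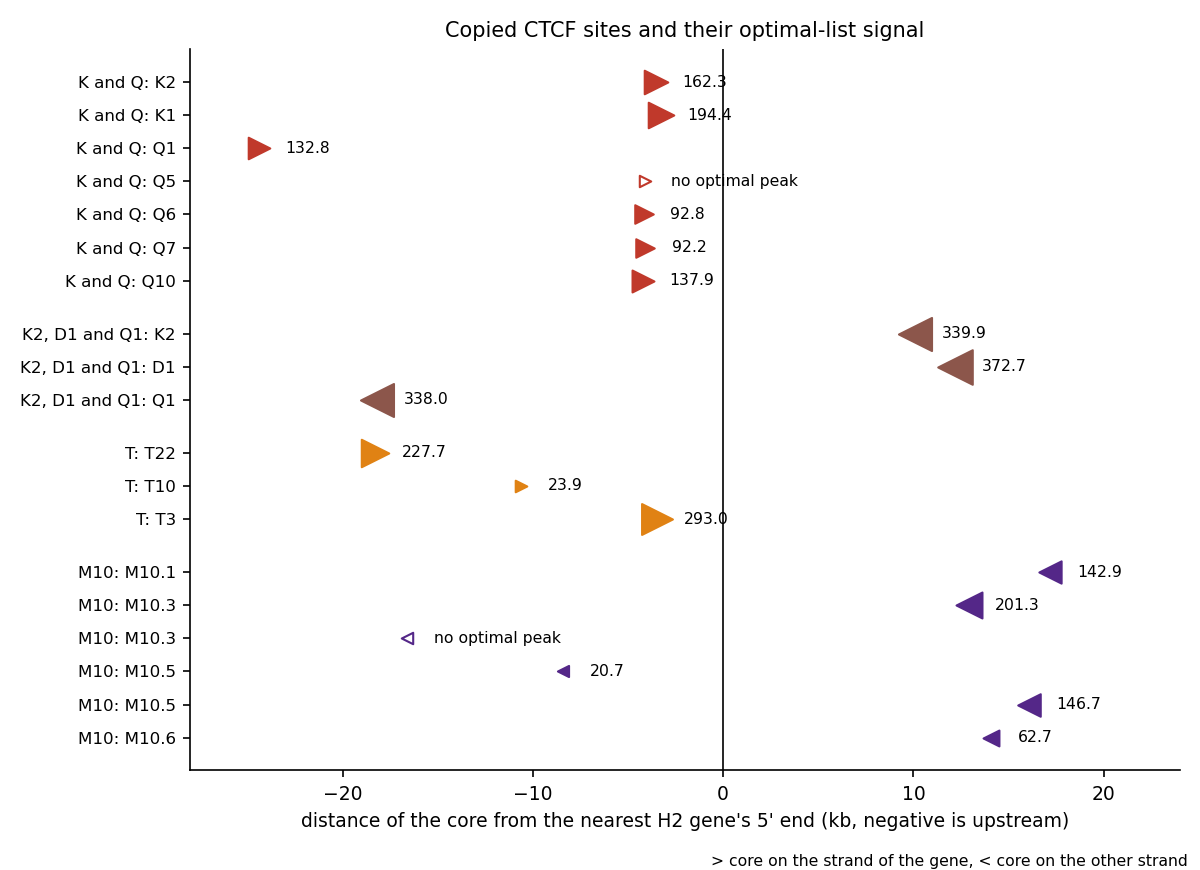
Position of each copied CTCF site relative to the 5' end of the nearest H2 gene (kb, negative is upstream), with triangles that point right where the core is on the strand of the gene and left where it is not, and the optimal-list signal as triangle size and number. The K and Q copies at H2-K2, H2-K1, H2-Q5, H2-Q6, H2-Q7 and H2-Q10 lie 3.29 to 4.21 kb upstream, while the 4 M10 copies with signals from 62.7 to 201.3 lie downstream of the 5' ends.

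The M genes also bordered the emptiest stretches. No optimal peak lay in the gaps from H2-M10.4 to H2-M11 (84.7 kb), from H2-M11 to H2-M9 (90 kb) or from H2-M9 to H2-M1 (27.3 kb), and the peak nearest to the 5' end of H2-M11 was 129 kb away. Between 62.4 and 72% of 32-base words in these 3 gaps occur once. The 12 M genes held no peak at a 5' end and none in the gene, and M gaps had 2.97 peaks per 100 kb. Most of those peaks were in the 168 kb from H2-M10.6 to H2-M5, which held 12 peaks with a highest signal of 287.0 and the starts of 10 other protein-coding genes, several of the Trim family. The Q gaps had 4 peaks per 100 kb and the T gaps 5.76, and no peak lay in the 32.9 kb from H2-Q2 to H2-Q4, where 45.5% of words are unique. The 3 peaks in the 4.27 kb between H2-T23 and H2-T22 had signals between 17.2 and 63.7.

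Longer stretches between H2 genes fell outside the rule and were counted for comparison. The 921 kb from H2-Eb2 to H2-D1, which hold the class III genes of the complex, had 84 peaks (9.12 per 100 kb), and the 531 kb from H2-Q10 to H2-T24 had 58 (10.9 per 100 kb). The 281 kb from H2-M5 to H2-M3 had 9 peaks (3.21 per 100 kb). The 206 kb from H2-M3, whose product presents peptides with a formyl group, to H2-M2 had none.

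**Figure D5:**
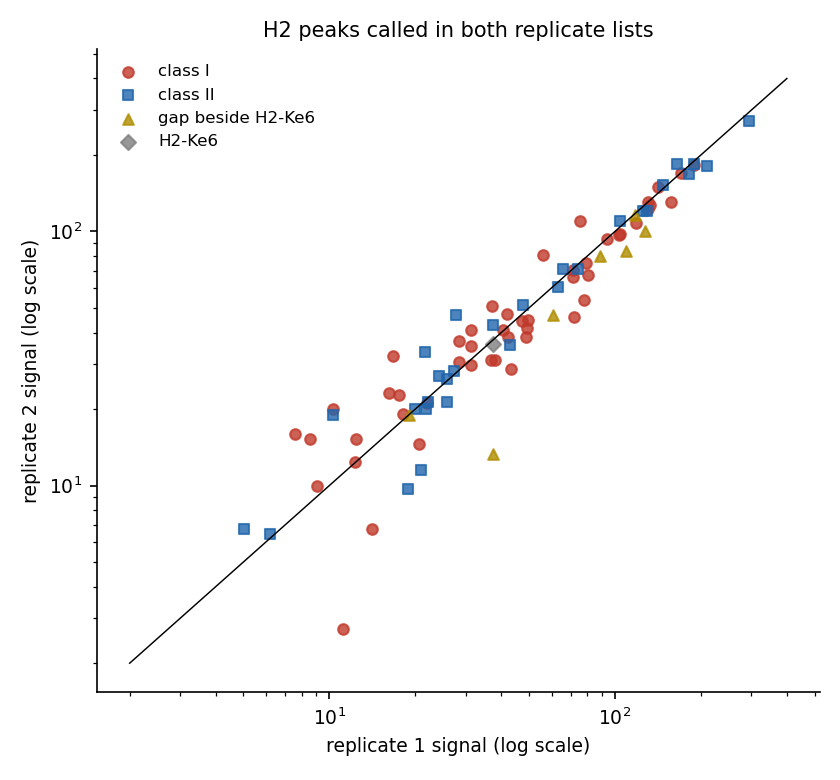
Signal of the 86 H2 peaks called in both replicate lists, replicate 2 against replicate 1 on log axes, by class, with the line of equal signal. Strong peaks such as the one at H2-DMa, 295.5 in replicate 1 and 273.3 in replicate 2, lie near the line, and the weakest peaks scatter most.

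Other genes of antigen presentation were read from lists. Of 14 genes for peptide processing and loading 7 had a peak within 1 kb of the 5' end (50%), against 28.3% of all protein-coding genes. Signals were 371.8 at Tap2, 252.5 at Erap1, which trims peptides, 98.6 at Tapbp, the bridge between class I and the transporter, 96.7 at Calr, 85.7 at Pdia3, 21.6 at Psmb10 and 17.4 at Psme2. B2m, the light chain of class I molecules, had none, as had Tap1, Psmb8 and Psmb9. Of 10 regulators of H2 transcription 3 had one (30%): Creb1 with 32, Irf1 with 22.9 and Rfxap with 13.7. Ciita, the master activator of class II genes, and Nlrc5, its class I counterpart, had none at the 5' end. None of 4 class II pathway genes and none of 5 class I-like genes on other chromosomes had one. In the class III list 9 of 28 genes did (32.1%), led by Nfkbil1 with 516.8, Neu1, a lysosomal sialidase, with 295.5, and Cyp21a1, a steroid hydroxylase, with 113.1. Clic1 had 71.9, Ddx39b 33.4 and Lsm2 26.3, and Skiv2l and Nelfe shared a peak of 18.7.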

How the data were processed

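The authors deposited 5 peak lists on mm10, per the labels: 1 per replicate and 1 pooled (300000 peaks each), and a conservative (54864) and an optimal list (57220) made by IDR. The peak signal was used as the authors deposited it, and its scale is not stated. The sources used here name no aligner, peak caller or threshold, and do not say how multi-mapping reads were treated. The control experiment was not analysed here. Summits were set against GENCODE M21 and GRCm38 with Python 3.11.15, numpy 2.4.6 and pandas 2.3.3. Replicates were used alone through their 57220 strongest peaks. Words of 32 bases were called unique when they occur once in the genome on either strand. CpG-rich means a GC share of 50% or more and a CpG ratio (observed to expected) of 0.6 or more within 500 bp of the 5' end. With 1 group and no contrast there was no test, and counts are set beside those of all genes. Assignment and motif search were tested on planted data. Members and lists were chosen with earlier results of these data known. H2 genes with peaks and those beside filled gaps are named, list genes with a peak up to 8 per list. Ifi30, Cd1d2, C4a and Ncr3 were not matched. One gene of the regulator list and 1 sequence are not reported here.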

Additional observations from a re-analysis of the deposited data

How the results depend on the processing

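No paired analysis was possible because the series has 1 group. The 5' end count of 4 H2 genes became 1 in the stronger 28610 peaks and 14 within 5 kb, and the class I count of 2 became 0 in the stronger peaks, 1 within 500 bp and 9 within 5 kb. The class II count of 1 became 0 in the conservative list and in the stronger peaks, 4 within 5 kb and 3 over all annotated starts, and it was 0 to 1 with a replicate left out. Shares of all protein-coding genes within 5 kb or over all annotated starts are not given here. Whether H2 genes still have fewer peaks than other genes in those settings is therefore not known. Class I genes with a peak inside were 2 in the conservative list, and 1 to 2 with a replicate left out. Densities per 100 kb in class I and class II gaps were 2.36 and 7.22 in the stronger peaks and 3.45 and 5.43 in gaps without another coding start. Class II gaps gave 10.5 in the conservative list and 9.85 to 10.5 with a replicate left out. The core share of 66.3% became 63.6% in the conservative list, 85.7% in the stronger peaks, 41.6% with at most 1 mismatch, 84.3% with at most 3 and 70.8% within 100 bp, and was 66.7 to 68.9% with a replicate left out. The stronger peaks numbered 49 with a median signal of 171. Class II stayed above class I in gap density under each of these settings. Without replicate 1 or 2 the signal has another scale, so its median was not compared. Depth is unknown, so a missing peak says only that none was called.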
